A study of Drosophila melanogaster with 6 samples.

Results

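The transcripts of the alpha-, beta- and gamma-tubulin genes were examined in S2R+ cells depleted of Hakai. The family was given as a list of 10 genes by their FlyBase symbols: alphaTub84B, alphaTub84D, alphaTub85E, alphaTub67C, betaTub56D, betaTub60D, betaTub85D, betaTub97EF, gammaTub23C and gammaTub37C. Of these, 9 were matched to an identifier among the 17559 in the count files. betaTub60D has no value below, because its identifier in the annotation is not among them and no older one is tied to it in the tables at hand. The genes were chosen by their values in this knockdown (KD), in that the family was put forward with the counts of the same 6 libraries known. The difference between Hakai KD and control KD is therefore given for its members as a description. Calls of members in the fit over all genes come from the same contrast and are not read as a test of the family.

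S2R+ is a Drosophila melanogaster cell line of embryonic origin with hemocyte features. Control KD cells received 10 µg of dsRNA against the bacterial gene lacZ and Hakai KD cells 10 µg of dsRNA against Hakai, a RING-type ubiquitin ligase that associates with the m6A mRNA methyltransferase complex, in 3 treatments over 6 days. These amounts are those of the labels, and the paper's methods give a different amount of dsRNA. Cells of both groups were at passages 8 to 10, and poly(A) RNA of 3 libraries per group was counted per gene. The study describes the 3 libraries of a group as biological replicates, whereas the labels only number them. The p-values below set the difference between groups against the spread between these libraries, estimated with information shared across genes.

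Microtubules are polymers of heterodimers that hold 1 alpha- and 1 beta-tubulin, whereas gamma-tubulin sits in ring complexes that start new microtubules. Flies carry several genes, called isotypes, for each of the 3 subunits. alphaTub84B, alphaTub84D and betaTub56D are the broadly expressed isotypes, and alphaTub84B and alphaTub84D encode nearly identical proteins. alphaTub67C and gammaTub37C are known as maternal isotypes of the ovary and early embryo, betaTub85D as the testis isotype of the sperm tail, and betaTub60D as an isotype of mesoderm and muscle. alphaTub85E is expressed in few tissues, testis among them, gammaTub23C is the somatic gamma-tubulin of centrosomes, and betaTub97EF is known for its rise at low temperature, where it stabilizes microtubules.

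The libraries held 16041353 to 17288912 counts. Between libraries of 1 group, a chi-square comparison of the counts over genes gave 2.27 to 14.8 per degree of freedom, so that no pair was alike within sampling noise. The largest values within a group, 11.5 and 14.8, were those of control KD replicate 1 against the other control libraries. Hakai itself was at 23.7% of its control level upon Hakai KD, without overlap between the groups. Levels below are normalized counts, that is, counts scaled by TMM to the mean effective size of the 6 libraries. Where a value is given for each library of a group, the order is that of replicates 1, 2 and 3. The marker genes of hemocytes srp, crq and Pxn were abundant, at 2677 normalized counts or more in every library, whereas NimC1 was at 6.31 or fewer. The other listed hemocyte markers lay between, with Sr-CI at 902 to 1045, Ppn at 440 to 745 and Hml at 160 to 295. eater was at 98.8 to 127 and He at 16.3 to 38.6.

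Among the matched genes, expression was concentrated on 1 alpha and 1 beta isotype. The level of betaTub60D is not known, since it has no value here. To compare genes with each other, normalized counts were divided by the exon length of the gene. In control KD, alphaTub84B had 23018 ± 876 (SD, n = 3) normalized counts per kb of exon and ranked at place 51 among 17254 genes with a length. betaTub56D followed with 20350 ± 870 (SD, n = 3) per kb, at place 62. The control libraries of these isotypes did not overlap (22009 to 23585 per kb against 19346 to 20870 per kb), but the Hakai KD libraries did (22993 to 24525 per kb against 22080 to 23349 per kb). Within every single library of both groups, alphaTub84B was above betaTub56D. alphaTub84D had 1861 ± 68.4 (SD, n = 3) per kb in control KD, and the somatic gammaTub23C had 692 ± 6.90 (SD, n = 3) per kb.

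betaTub97EF and the maternal isotype gammaTub37C lay side by side in control KD, with 447 ± 19.7 and 439 ± 12.4 (SD, n = 3) normalized counts per kb. Their control libraries overlapped, at 434 to 470 per kb for betaTub97EF and 429 to 453 per kb for gammaTub37C, although betaTub97EF was the higher within each control library. Upon Hakai KD they were apart, at 238 to 264 and 464 to 497 per kb. gammaTub37C was thus expressed in these cells although it is known as a maternal isotype, while every library had 4 counts or fewer of the maternal alpha isotype alphaTub67C. alphaTub85E stood far lower, at 5.97 to 9.24 per kb in control KD and 4.04 to 8.47 per kb in Hakai KD.

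**Figure D1:**
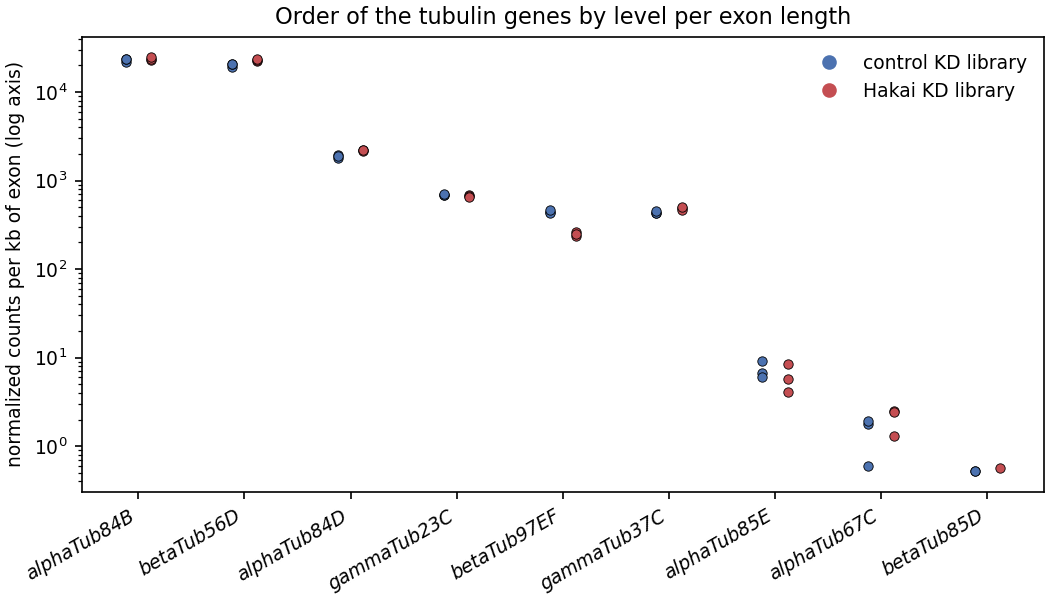
Normalized counts per kb of exon (log axis) of the 9 matched tubulin genes in order of their control level, with 1 point per library. alphaTub84B and betaTub56D lie at 19346 per kb or more in every library, and betaTub97EF is below gammaTub37C only in Hakai KD. Libraries without a count of betaTub85D cannot be drawn on this axis.

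alphaTub67C and betaTub85D were at or near the limit of detection. alphaTub67C, the maternal alpha isotype, had 3, 1 and 3 counts in the control KD libraries and 4, 4 and 2 counts in the Hakai KD libraries. betaTub85D, the testis isotype, had 1, 1 and 0 counts in control KD and 0, 0 and 1 counts in Hakai KD. These values of betaTub85D lie under the limit of 3 counts that a count of 0 allows. This limit is 0.00678% to 0.00781% of the summed counts of the matched beta genes of a library. Both genes failed the filter on low counts and no fold is given for them.

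No exon of another gene overlaps the exons of any of the 10 tubulin genes in the annotation (BDGP6.54), on either strand. alphaTub84B (FBgn0003884, 3R, 7086599 to 7088839, plus strand) and the single-exon gene alphaTub84D (FBgn0003885, 3R, 7530753 to 7532732, plus strand) are 441913 bases apart and code for 450 residues each. How the counting treated reads that match both genes is not given in the sources used here, so their separate values are uncertain and their sum is given as well. betaTub56D (FBgn0003887 in the files) spans 19447319 to 19451600 on the minus strand of 2R. The scarce isotypes alphaTub85E (FBgn0003886, 9731221 to 9733250) and betaTub85D (FBgn0003889, 9408383 to 9410282) lie on the minus strand of 3R, and alphaTub67C (FBgn0087040, 9681268 to 9683370) on the plus strand of 3L. gammaTub23C (FBgn0260639) lies on 2L from 2972891 to 2974858 on the plus strand, and gammaTub37C (FBgn0010097) on 2L from 19183863 to 19185726 on the minus strand.

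betaTub97EF (FBgn0003890, 3R, 27967008 to 27988384, minus strand) has the longest span of the family, 21377 bases, and its longest intron has 13756 bases. Its 2 annotated transcripts have 7 exons and 457 codons each. They differ in which of 2 alternative coding exons of 168 bases they hold, 27969383 to 27969550 or 27969660 to 27969827. Counts per gene carry no splice junctions, so the transcripts could not be told apart.

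Of the 9 matched genes, 7 passed the filter and entered the comparison of Hakai KD with control KD across 7811 genes by edgeR's quasi-likelihood test. Among all genes tested, 15.3% were called at an adjusted p-value under 0.05, 7.58% higher and 7.72% lower in Hakai KD. Of the 7 tubulin genes, 3 were called, alphaTub84D and betaTub56D higher and betaTub97EF lower, and without control KD replicate 1 or 2 or Hakai KD replicate 2 or 3 this count was 2, since betaTub56D (log2 fold change 0.13, 0.18, 0.16 and 0.14) was then not among them. The groups did not overlap for 5 of the 7 genes, beside 34.9% of all genes tested. Since the list was chosen with this contrast in view, nothing is read from these counts. Over the 7 tubulin genes the median log2 fold change was 0.05, beside 0.000584 over all genes tested, and without regard to sign the median of all genes was 0.0836.

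The largest difference in the family was that of betaTub97EF. It had 817, 812 and 878 normalized counts in the control KD libraries and 445, 493 and 462 in those of Hakai KD. All Hakai KD libraries were far below all control libraries, and the libraries of 1 group lay close together. The mean of 835 ± 36.8 in control KD stood against 467 ± 24.1 in Hakai KD (SD, n = 3), or 55.8% of control. This is a log2 fold change of -0.84 (SE 0.053), and 36 of the 7811 genes tested had a lower one. Leaving out each library in turn gave -0.88 to -0.80. In RNA from a whole culture, a lower count can stem from fewer cells that express the gene or from less RNA per cell, which cannot be told apart.

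betaTub56D, which supplied nearly all counts of the matched beta genes, was higher in Hakai KD by 12.0%. It had 36157, 38941 and 39006 normalized counts in the control KD libraries and 41268, 42917 and 43639 in those of Hakai KD, without overlap. The log2 fold change was 0.16 (SE 0.041). With each library left out in turn it was between 0.13 and 0.19. Control KD replicate 1 was the lowest control library for betaTub56D, alphaTub84B and alphaTub84D alike.

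Among the alpha isotypes, only the libraries of alphaTub84D were apart between the groups. The major isotype alphaTub84B had 38560, 41322 and 41103 normalized counts in the control KD libraries and 40284, 41673 and 42967 in those of Hakai KD. These groups overlapped, and the log2 fold change was 0.05 (SE 0.040). alphaTub84D had 3534, 3795 and 3726 normalized counts in the control KD libraries and 4405, 4303 and 4406 in those of Hakai KD. Every Hakai KD library of alphaTub84D was above every control library, with a mean 18.6% above control and a log2 fold change of 0.25 (SE 0.033) that stayed between 0.22 and 0.27 with each library left out. Summed over alphaTub84B and alphaTub84D, normalized counts were 44013 ± 1668 in control KD against 46013 ± 1342 in Hakai KD (SD, n = 3), and the groups overlapped. alphaTub85E had 9.32 to 14.4 normalized counts in control KD and 6.31 to 13.2 in Hakai KD, too few to place its difference, with a log2 fold change of -0.27 and a standard error of 0.35.

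The differences of the gamma isotypes were small. gammaTub23C had 1266, 1280 and 1292 normalized counts in the control KD libraries and 1263, 1224 and 1217 in those of Hakai KD. The groups were separated by few counts only, and the log2 fold change was -0.05 (SE 0.035). gammaTub37C had 708, 698 and 737 normalized counts in the control KD libraries and 789, 755 and 810 in those of Hakai KD. Here the groups lay further apart, with a log2 fold change of 0.13 (SE 0.045) that was between 0.11 and 0.16 with each library left out.

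**Figure D2:**
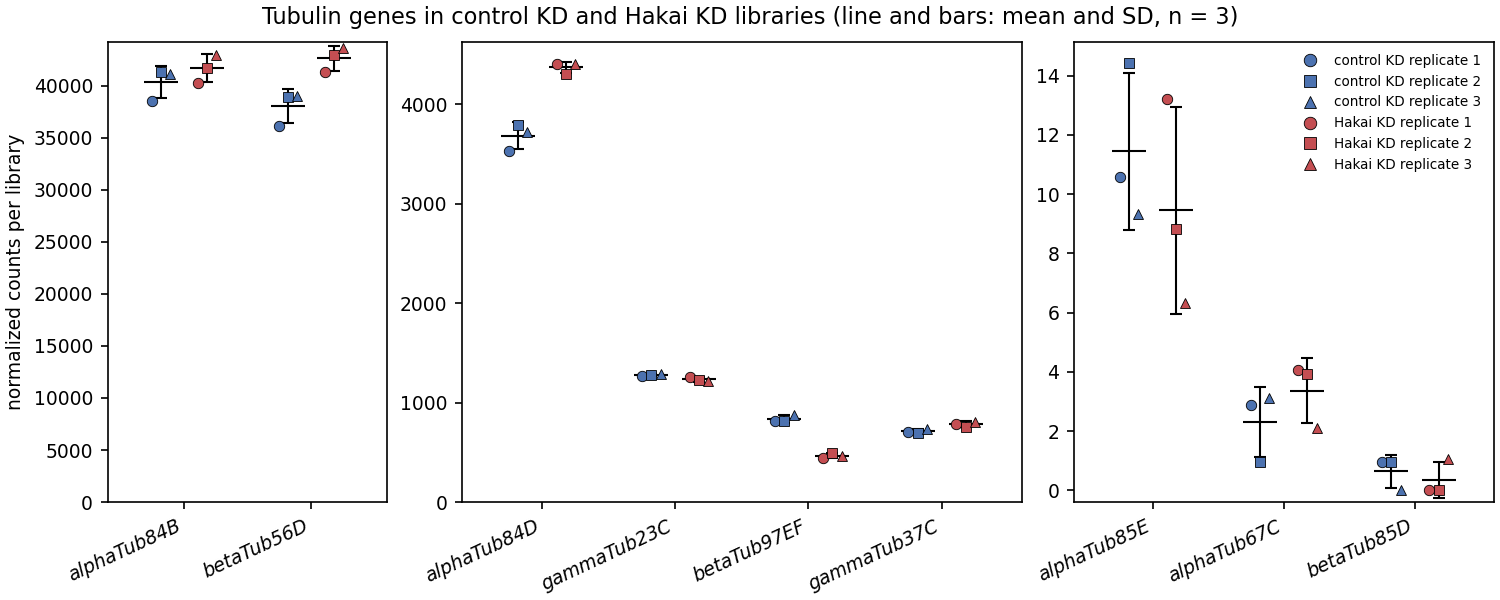
Normalized counts of the 9 matched tubulin genes in each library, in 3 panels with axes of different range that hold 0, with the mean and SD of 3 libraries per group. betaTub97EF lies at 812 to 878 in control KD and at 445 to 493 in Hakai KD, while alphaTub84D and betaTub56D are higher in all Hakai KD libraries.

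**Figure D3:**
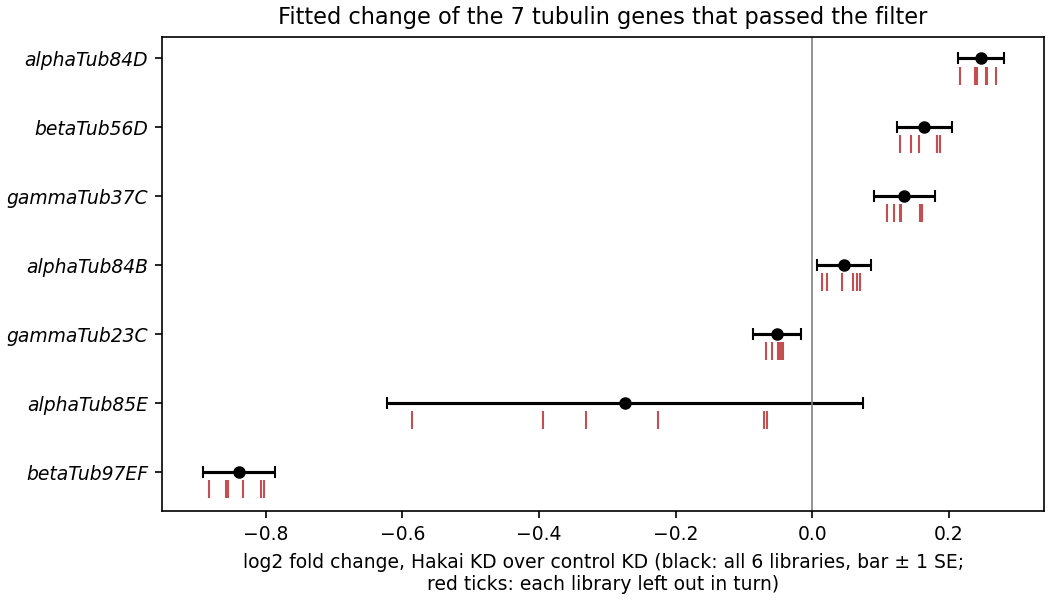
Log2 fold change of Hakai KD over control KD (horizontal axis) for the 7 tubulin genes that passed the filter, as a black point with a bar of 1 standard error to either side, and as red ticks with each library left out in turn. betaTub97EF stands apart at -0.84, and the ticks of alphaTub85E, which has few counts, spread from -0.59 to -0.07.

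Shares within a subunit are taken inside each library and need no scaling between libraries. Of the counts on the 4 alpha genes, alphaTub84B held 91.6% ± 0.0569 in control KD against 90.5% ± 0.314 in Hakai KD (SD, n = 3). By replicate number, alphaTub84D held 8.39%, 8.41% and 8.31% in the control KD libraries and 9.85%, 9.36% and 9.30% in those of Hakai KD. The means differed by 1.13 points, and the widest 95% Wilson interval of a library spanned 0.557 points. Intervals of this kind cover the counting error of a single library only, not the error of a difference of means. Per 100 counts on alphaTub84B there were 9.14 ± 0.0643 on alphaTub84D in control KD against 10.5 ± 0.374 in Hakai KD (SD, n = 3).

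The beta shares are over betaTub56D, betaTub97EF and betaTub85D only, since betaTub60D has no value. betaTub97EF held 2.21%, 2.04% and 2.20% of these counts in the control KD libraries, and 1.07%, 1.14% and 1.05% in those of Hakai KD. All Hakai KD libraries were thus near 1%, and the widest 95% Wilson interval of a library was 0.294 points. betaTub56D took up the rest, 97.8% ± 0.0940 in control KD against 98.9% ± 0.0453 in Hakai KD (SD, n = 3). Per 100 counts on betaTub56D there were 2.26, 2.08 and 2.25 counts on betaTub97EF in the control KD libraries, and 1.08, 1.15 and 1.06 in those of Hakai KD.

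Between the gamma genes, gammaTub37C held 35.9%, 35.3% and 36.3% of the counts in the control KD libraries, and 38.5%, 38.1% and 39.9% in those of Hakai KD. The libraries of the groups did not overlap, and the means differed by 3.02 points. The widest 95% Wilson interval of a single library spanned 4.37 points, which is not a measure of error for the difference of the means. gammaTub23C held the remaining 64.2% ± 0.519 in control KD against 61.2% ± 0.958 in Hakai KD (SD, n = 3).

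**Figure D4:**
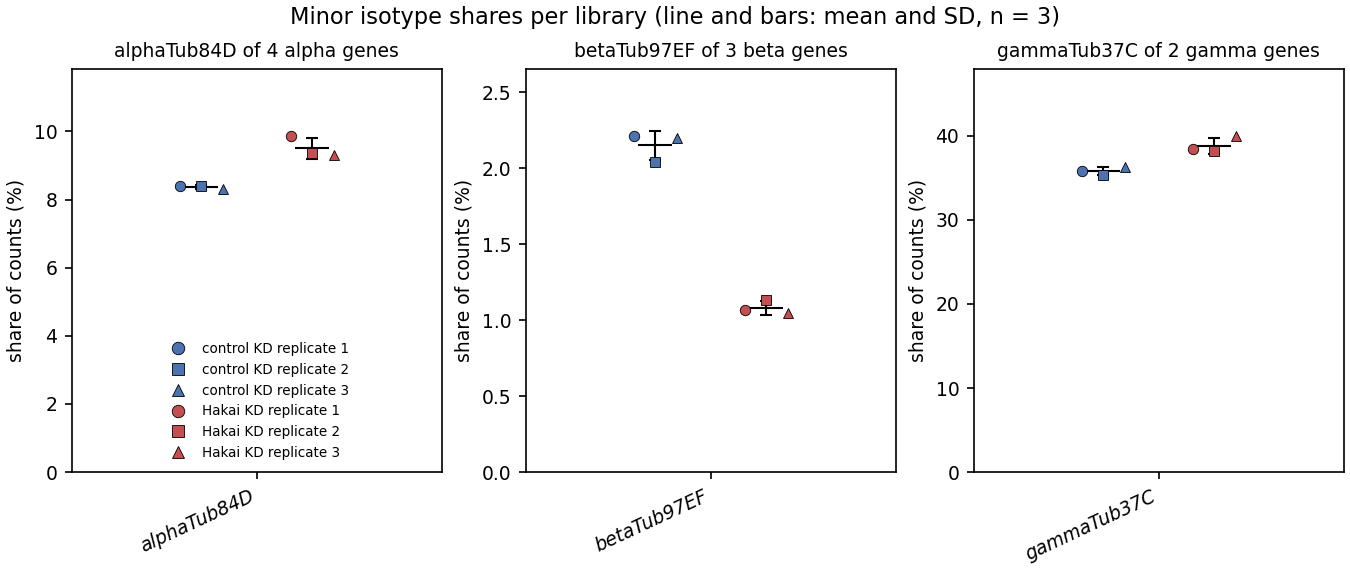
Share of counts in percent of alphaTub84D among 4 alpha genes, of betaTub97EF among the 3 beta genes with a value and of gammaTub37C among the 2 gamma genes, with 1 point per library and the mean and SD of 3 libraries. The share of betaTub97EF is 2.04% to 2.21% in control KD and 1.05% to 1.14% in Hakai KD, and those of alphaTub84D and gammaTub37C are higher in all Hakai KD libraries.

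The 9 genes together took 0.515% ± 0.0147 of all counts in control KD against 0.539% ± 0.0148 in Hakai KD (SD, n = 3). The alpha genes held 0.267% and 0.272% of all counts, with overlapping groups. The matched beta genes, which leave out betaTub60D, held 0.236% and 0.255%, without overlap. The ratio of these beta counts to the alpha counts was 0.883 ± 0.00591 in control KD against 0.936 ± 0.00704 in Hakai KD (SD, n = 3), again without overlap. The major isotypes alone were apart too: per 100 counts on alphaTub84B, betaTub56D had 93.8, 94.2 and 94.9 counts in the control KD libraries, and 102, 103 and 102 in those of Hakai KD.

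The genes whose pattern over the 6 libraries was most like that of betaTub97EF were CG10962, Nup43, which encodes a nucleoporin, and CG1572. Their Pearson r of log2(normalized counts + 1) with betaTub97EF was 0.996, 0.996 and 0.995 over 6 libraries. With 3 libraries per group such values are common, and 529 of 7810 genes had an r above 0.9. Their log2 fold changes were smaller than that of betaTub97EF, at -0.36, -0.36 and -0.27.

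Genes that act on tubulin were then counted on lists of known members, to be read beside the 15.3% of all genes that were called and the 29.8% that had an unadjusted p under 0.05. These lists, and those of actins and cell type markers below, were chosen with earlier results of these data known. Their counts and p-values are therefore a description and not an independent test. None of the 18 measured genes for tubulin folding, which cover the CCT chaperonin, prefoldin and the cofactors TBCB to TBCE, passed the test in either direction (edgeR's quasi-likelihood test). Their log2 fold changes ran from -0.09 to 0.08 with a median of -0.01. At an unadjusted p under 0.05 there were 3 of them, and DESeq2 and limma-voom called 0.

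Among 14 measured genes of the gamma-tubulin ring complex and of augmin, which recruits this complex to existing microtubules, 1 fell and 13 did not pass. The gene that fell was Grip84, a core subunit of the ring, from 1244 ± 30.1 to 1114 ± 35.9 normalized counts (SD, n = 3), with a log2 fold change of -0.16 (SE 0.039, adjusted p = 0.0192, edgeR's quasi-likelihood test). The call was lost without control KD replicate 2 or 3, without Hakai KD replicate 2 and in DESeq2 (adjusted p up to 0.0811), and exons of mir-978 and mir-979 overlap the gene on the other strand. The log2 fold changes of 13 of the 14 genes were below 0, with a median of -0.09, beside a median of 0.000584 over all genes tested. At an unadjusted p under 0.05 there were 5 of the 14 (29.8% of all genes were), DESeq2 called 0 and limma-voom 1. The log2 fold change of gammaTub23C (-0.05) lay within their range of -0.16 to 0.01, and a shared shift was not tested. Of 9 centrosome and centriole genes, such as cnn, spd-2 and asl, 0 passed edgeR's quasi-likelihood test, 3 had an unadjusted p under 0.05 (29.8% of all genes did), and DESeq2 and limma-voom called 0. Their median was -0.11.

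Of 10 measured enzymes that modify tubulin, 1 fell and 9 did not pass. TTLL5, a tubulin tyrosine ligase-like enzyme, had a log2 fold change of -0.18 (SE 0.051, adjusted p = 0.0344, edgeR's quasi-likelihood test). Its call was lost without control KD replicate 1 or 3, without any 1 of the Hakai KD libraries and in DESeq2 (adjusted p up to 0.103), and exons of CG31510 overlap it on the same strand. The log2 fold changes of the 10 enzymes ran from -0.18 to 0.40, with a median of 0.04. The acetyltransferase Atat, given as an example, had 612 ± 21.1 and 596 ± 23.2 normalized counts in control KD and Hakai KD (SD, n = 3) and did not pass.

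Of 21 measured microtubule-associated proteins, 2 rose, 2 fell and 17 did not pass, with a median of 0.02. feo, which bundles antiparallel microtubules in the spindle midzone, rose by a log2 fold change of 0.25 (SE 0.050, adjusted p = 0.00692, edgeR's quasi-likelihood test). Map205 rose by 0.16 (adjusted p = 0.0223, same test of edgeR), kat80, a katanin subunit, fell by 0.17 (adjusted p = 0.0246), and asp, which focuses spindle poles, fell by 0.17 (adjusted p = 0.0257). The call of feo held in all 13 alternatives. Those of Map205, kat80 and asp did not: Map205 was lost without control KD replicate 1 or 2, without Hakai KD replicate 1 or 2 and with library size alone (adjusted p up to 0.0952), kat80 without control KD replicate 1, without any 1 of the Hakai KD libraries and in DESeq2 (up to 0.0862), and asp without control KD replicate 1 or 2 and without Hakai KD replicate 1 or 3 (up to 0.104).

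Among 30 measured kinesin, dynein and dynactin genes, 2 rose, 2 fell and 26 did not pass, with a median of -0.02. sw, the dynein intermediate chain, had 1532, 1620 and 1667 normalized counts in the control KD libraries and 1255, 1249 and 1265 in those of Hakai KD. It fell by 0.35 on the log2 scale (SE 0.040, adjusted p = 0.000182, edgeR's quasi-likelihood test), the largest change among the called genes of the microtubule lists. Klp61F, the bipolar kinesin that slides spindle microtubules apart, fell by 0.17 (adjusted p = 0.00609, same test of edgeR), with exons of galene on its other strand. Lis-1, a regulator of dynein, rose by 0.17 (adjusted p = 0.00521), and the kinesin Khc-73 by 0.14 (adjusted p = 0.0163). Among these 4 genes and the 13 alternatives, only Khc-73 lost its call, which it did without control KD replicate 3, without Hakai KD replicate 1 or 2 and with library size alone (adjusted p up to 0.0697).

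The actin isotypes were set beside the tubulins as the other major family of cytoskeletal polymers. Of 6 actin genes, 2 were measured above the filter. Act5C had 64779, 64438 and 64010 normalized counts in the control KD libraries and 55580, 58485 and 57181 in those of Hakai KD. It fell by 0.17 on the log2 scale (SE 0.035, adjusted p = 0.00646, edgeR's quasi-likelihood test). Act42A did not pass, with a log2 fold change of 0.05 (SE 0.034, adjusted p = 0.373). Per 100 counts on Act42A there were 68.9 ± 1.28 on Act5C in control KD against 59.0 ± 1.75 in Hakai KD (SD, n = 3), without overlap between the groups. The muscle actins Act57B, Act79B, Act87E and Act88F were at 6.21 normalized counts or fewer in every library. Of further genes that resemble tubulins, betaTub65B had no count and CG7794 had 2.10 normalized counts or fewer.

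**Figure D5:**
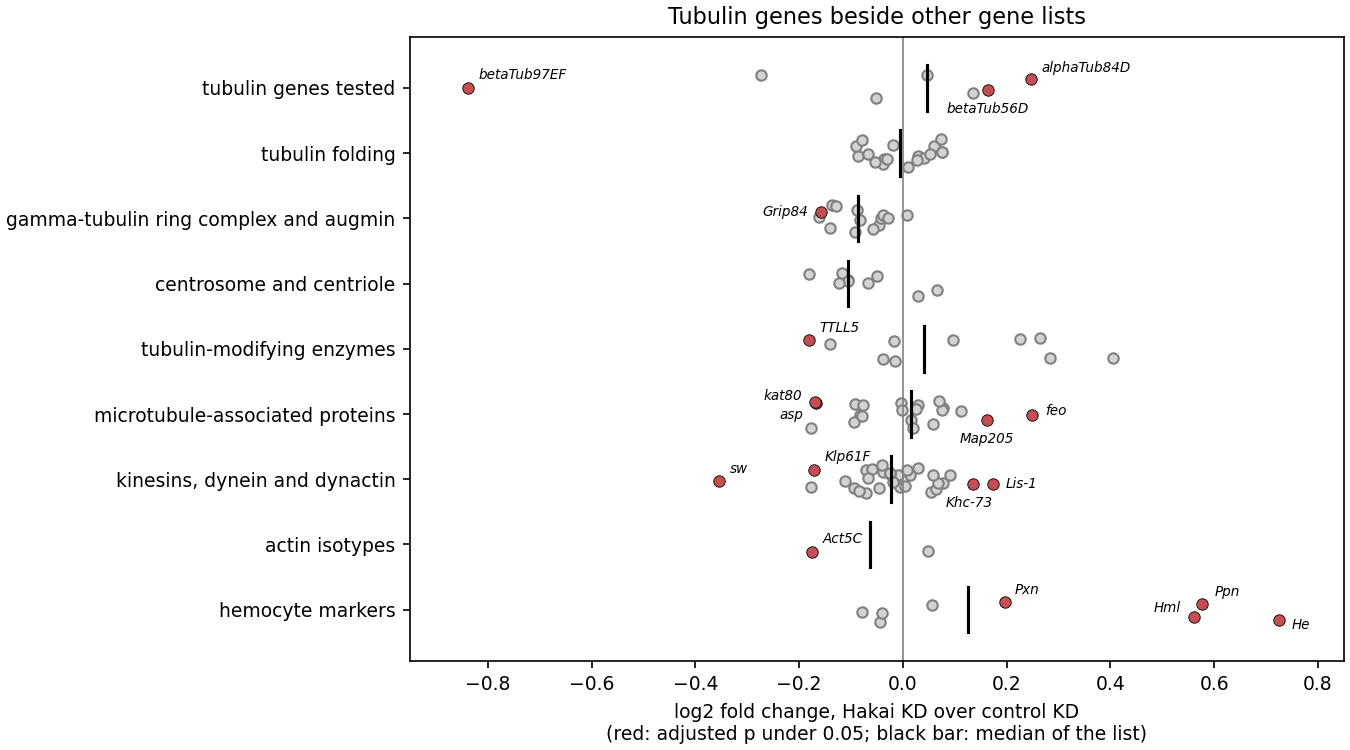
Log2 fold change of Hakai KD over control KD (horizontal axis) for the tested genes of the tubulin family and of 8 other lists (rows), with genes at an adjusted p under 0.05 in red and the median of each list as a black bar. betaTub97EF at -0.84 lies further from 0 than any gene of the other lists, where the largest log2 fold changes among called microtubule genes are -0.35 (sw) and 0.25 (feo).

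Markers of the cell types in which tubulin isotypes are known to differ were read in the same libraries, on lists chosen with earlier results of these data known. Of 8 measured hemocyte markers, 4 rose and 0 fell, where 7.58% of all genes tested were called higher. These were Ppn, higher by a log2 fold change of 0.58 (adjusted p = 0.000154, edgeR's quasi-likelihood test), Hml by 0.56 (adjusted p = 0.00427), Pxn by 0.20 (adjusted p = 0.00375) and He by 0.72 (adjusted p = 0.0456), which had 38.6 normalized counts or fewer. He lost its call without any 1 of the 6 libraries, with library size alone, with the replicate block, in DESeq2 and in limma-voom (adjusted p up to 0.22). Exons of lncRNA:CR45660 overlap those of Pxn on the same strand. srp, crq, eater and Sr-CI did not pass, at log2 fold changes of -0.04, -0.04, -0.08 and 0.06. The summed level of the 9 hemocyte markers was 15701 to 15954 normalized counts in control KD and 16166 to 16460 in Hakai KD, and its part in the tubulin values was not tested. Of the testis markers, sa, nht, Mst87F and dj were at 0 in every library, and aly and can had at most 1.04 normalized counts, beside the near absence of betaTub85D. Of the ovary markers, gus (log2 fold change -0.05) was at 3098 to 3364 normalized counts and osk (-0.01) at 49.4 to 69.4, and neither passed. bcd and Vm26Aa had 3.11 normalized counts or fewer, while gammaTub37C was at 698 or more.

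Of the muscle and mesoderm markers, Mhc, twi and Mlc2 had 13.5 normalized counts or fewer in every library. Mef2 and sls did not pass, and bt rose by a log2 fold change of 0.57 (SE 0.15, adjusted p = 0.0265, edgeR's quasi-likelihood test) from 61.4 ± 11.9 (SD, n = 3) normalized counts. This call was lost without control KD replicate 2 or 3, without any 1 of the Hakai KD libraries and in DESeq2 (adjusted p up to 0.0797). The summed muscle markers, 1643 to 1836 normalized counts in control KD and 1838 to 1864 in Hakai KD, were mostly Mef2. Of the neuron markers, nSyb, Syt1 and Syn had 7.68 normalized counts or fewer. elav (log2 fold change -0.05 at 312 to 461 normalized counts) and brp (0.38 at 8.66 to 15.2 normalized counts) did not pass.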

How the data were processed

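Poly(A) RNA of 3 control KD and 3 Hakai KD libraries of S2R+ cells was prepared with a directional kit and sequenced as single reads. Per the labels and the paper's methods, the authors mapped the reads with STAR (2.5.1b in the submitters' processing notes, build BDGP6), counted them per gene with featureCounts (1.5.1 in the same notes) and deposited raw counts per gene for each library, without normalization or pooling. Whether strand was used in the counting, and how multi-mapping reads were handled, is not given in the sources used here. Both can change the counts of near-identical genes such as alphaTub84B and alphaTub84D.

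The deposited counts were analysed with R 4.3.3, edgeR 4.0.16 (filterByExpr with a minimum count of 10 and a minimum total count of 15, TMM factors, quasi-likelihood test without covariates) and Python 3.11.15 with pandas 2.3.3. Calls were made at a Benjamini-Hochberg adjusted p-value under 0.05 over all 7811 genes. Approximate standard errors (SE) follow from the size of the log2 fold change over the square root of F. Symbols and positions came from the BDGP6.54 annotation, which named 17253 of 17559 identifiers. Library totals ranged from 16041353 to 17288912 counts, and a limit of 3 counts was set for a count of 0. Shares have 95% Wilson intervals.

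The alternatives were DESeq2 1.42.0, limma-voom (limma 3.58.1), the size factors of DESeq2, library size alone, no filter, at least 10 counts in every library, the replicate block, leaving out each library, and shares per exon length or with alphaTub84B and alphaTub84D summed.

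The members and lists were chosen with earlier results of these data known. Named genes were the 10 tubulin genes, Hakai, up to 3 genes per list and direction called at 50 normalized counts or more on average, all actins and cell type markers, and the 3 genes most like betaTub97EF. He is named as a marker. Atat, cnn, spd-2, asl, betaTub65B, CG7794 and genes that overlap a named gene were named outside this selection. betaTub60D of the family and CCT8, TBCA, Vash, vas and nos of the lists were not matched. Protein identity between the isotypes and splicing were not analysed here.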

Additional observations from a re-analysis of the deposited data

How the results depend on the processing

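Without 1 library at a time, 708 to 1014 genes were called, 328 to 521 of them higher and 380 to 509 lower, against 1195, 592 and 603 with all libraries. DESeq2 called 810 genes, 394 of them lower. With library size alone, 374 calls were higher and 922 lower (28.9% higher instead of 49.5%), and the median log2 fold change of all genes moved by -0.035. Over the 13 alternatives, the log2 fold change was -0.88 to -0.80 for betaTub97EF, 0.21 to 0.27 for alphaTub84D and 0.13 to 0.19 for betaTub56D. None of the 7 tested tubulin genes changed its sign in an alternative fit. alphaTub85E was not among the genes with at least 10 counts in every library, where 6 tubulin genes were tested. Per exon length, the share of alphaTub84B was 92.5% in control KD and 91.5% in Hakai KD, that of alphaTub84D 7.48% and 8.50%, that of gammaTub23C 61.2% and 58.1% and that of gammaTub37C 38.8% and 41.9%. Summed, alphaTub84B and alphaTub84D held 99.97% of the alpha counts in both groups.

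Libraries with the same replicate number did not deviate together, with correlations of -0.076, -0.033 and -0.075 for numbers 1, 2 and 3. With the replicate block, the fit called 1152 genes, 3 of them tubulin genes, and shared 1066 calls with the fit without it. Depth limits what can be said of alphaTub85E, alphaTub67C and betaTub85D, which had 15 counts or fewer in every library.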
